A study of Homo sapiens with 3 samples.

Results

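The apolipoproteins are the protein parts of the lipoprotein particles that carry lipids in plasma. The 10 genes of that system described here in Huh7 cells were APOA1, APOA2, APOA5, APOB, APOC1, APOC3, APOE, APOH, APOM and MTTP. The genes were chosen by name as secreted liver products and their assembly factor, and were found on the array through the RefSeq accession of each probe. They have 12 probes of 34127, and make up 10 of the 19740 named genes on the array.

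Huh7 is an established human hepatoma line, grown here in DMEM with fetal calf serum. Total RNA was taken from untreated cells and from cells exposed for 24 h to 50 μM or 100 μM of CA, chlorogenic acid, which is a polyphenol of plants. Per the methods of the study, DMSO was the vehicle of CA and of the untreated group. The label of the untreated sample gives its treatment as none and does not name DMSO. Each group is 1 array, so the ratios below are differences between single arrays, with no replicate to set them against and no test.

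Lipoproteins that contain APOB are built in the endoplasmic reticulum of hepatocytes and enterocytes. There the microsomal triglyceride transfer protein, encoded by MTTP, loads lipid onto APOB as it is made, and APOB that is not loaded is degraded. High-density lipoprotein (HDL) forms in another way, when secreted APOA1 takes up phospholipid and cholesterol from cells. The small exchangeable apolipoproteins APOE, APOC1, APOC3 and APOA5 move between particles and set how quickly plasma triglyceride is hydrolysed and remnants are cleared.

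Promoter windows from RefSeq (build GRCh38.p14, from 250 bases before to 50 bases after a gene start) were at hand for 7 of the 10 genes, as 11 windows. APOA1, APOB and APOC3 had none in the table used here. The windows below are those of APOA5, APOH and MTTP in which motifs of liver-enriched factors or nuclear receptors were found, and are shown to give the sequence in front of a triglyceride regulator, a plasma protein and the assembly factor. Capitals mark matches on either strand to any of 4 motifs. The motif bound by the liver factor HNF1 was searched as GTTAAT. The core of the site bound by the liver factor HNF4A was searched as CAAAGT. The site bound by many nuclear receptors was searched as AGGTCA. The TATA box of core promoters was searched as TATAAA.
APOA5, chr11:116792371-116792670, minus strand: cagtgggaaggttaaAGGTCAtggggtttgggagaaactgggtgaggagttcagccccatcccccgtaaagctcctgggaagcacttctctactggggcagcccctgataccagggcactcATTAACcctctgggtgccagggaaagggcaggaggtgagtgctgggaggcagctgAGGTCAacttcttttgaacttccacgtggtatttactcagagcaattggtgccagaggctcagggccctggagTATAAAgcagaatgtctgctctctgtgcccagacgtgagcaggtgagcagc
APOH, chr17:66229366-66229665, minus strand: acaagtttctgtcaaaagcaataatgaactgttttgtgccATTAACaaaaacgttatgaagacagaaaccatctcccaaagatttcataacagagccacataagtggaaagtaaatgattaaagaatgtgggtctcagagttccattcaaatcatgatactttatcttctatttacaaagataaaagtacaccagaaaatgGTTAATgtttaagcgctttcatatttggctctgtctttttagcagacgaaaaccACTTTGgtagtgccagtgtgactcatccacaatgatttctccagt
MTTP, chr4:99574574-99574873, plus strand: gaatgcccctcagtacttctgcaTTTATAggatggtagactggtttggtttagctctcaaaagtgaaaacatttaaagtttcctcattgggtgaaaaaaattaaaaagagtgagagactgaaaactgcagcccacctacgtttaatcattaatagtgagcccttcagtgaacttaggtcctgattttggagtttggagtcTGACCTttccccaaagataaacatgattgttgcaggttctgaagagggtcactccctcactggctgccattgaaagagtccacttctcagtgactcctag

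The APOA5 window held the nuclear receptor motif at 235 and 74 bases before the start, the HNF1 motif (on the other strand) at 129 bases before it, and the TATA box at 1 base before it. The APOH window held the HNF1 motif at 210 bases (on the other strand) and 49 bases before the start and the HNF4A core, on the other strand, at 6 bases after it. The MTTP window held the TATA box at 227 bases and the nuclear receptor motif at 50 bases before the start, both on the other strand. A further APOA5 window held the nuclear receptor motif at 156 bases before its start. The matches did not overlap each other.

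Such letters are common. Of 35116 windows of the same length, 6.88% held the HNF1 motif, 11.9% the HNF4A core, 13.8% the nuclear receptor motif and 11.5% the TATA box. Of the 11 windows of the 10 genes, 2, 1, 3 and 2 did. A match is a description of the sequence, and no factor binding was measured here.

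Every probe of the 10 genes was well above background on all 3 arrays, and no spot of them was saturated. Signals are Feature Extraction processed intensities in arbitrary units, and log2 ratios were formed after each array was scaled to its 75th percentile (1059 units for untreated, 1207 for CA 50 μM and 1249 for CA 100 μM). An equal signal on a treated array is therefore a lower scaled level. Different probes bind with different strength, so that levels of the 10 genes are compared between arrays for 1 probe and never between probes. The sums of marker signals given further below add different probes, and can be compared between arrays only.

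**Figure D1:**
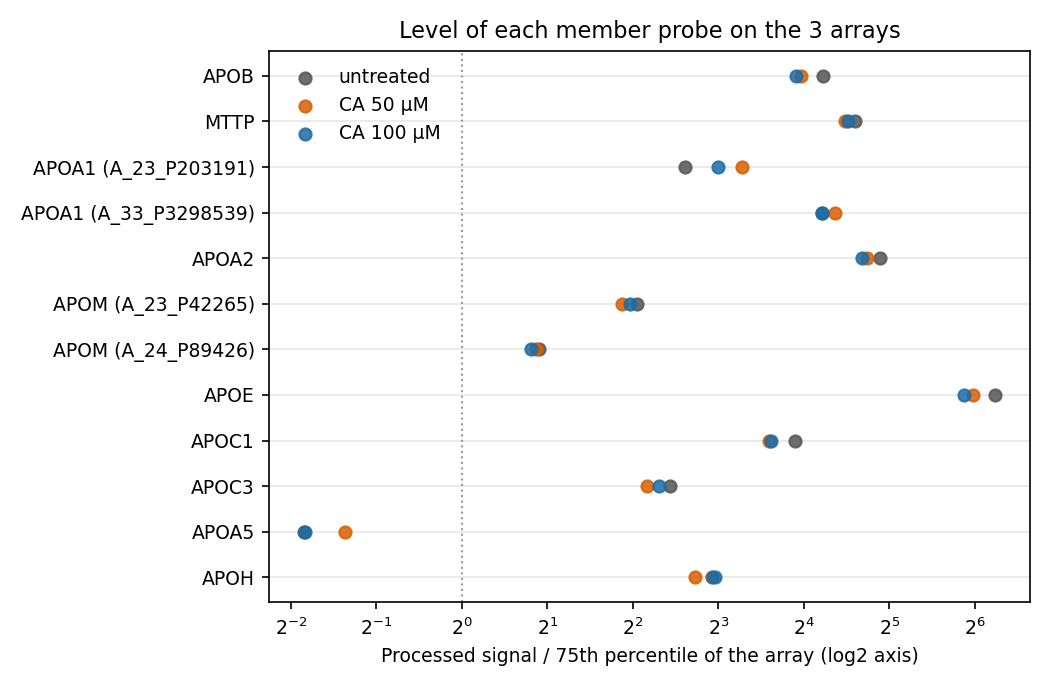
Scaled level of the 12 probes (processed signal divided by the 75th percentile of its array, log2 axis) for untreated, CA 50 μM and CA 100 μM, with 1 point per array. The points of a probe lie close together except for APOA1 probe A_23_P203191, highest at CA 50 μM, and APOA5, whose untreated and CA 100 μM points coincide below the dotted line at the 75th percentile.

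Most of the 10 genes differed little between the arrays. Against untreated, APOA1 was 1.59-fold higher at CA 50 μM by its probe printed 10 times and 1.11-fold by its other probe. APOA5 was 1.39-fold higher at CA 50 μM, and 9 of the 12 probes were lower, none by as much as 1.5-fold. At CA 100 μM the APOA1 probe printed 10 times was 1.31-fold higher, whereas the other was 0.997-fold. Again 9 of 12 probes were lower, and no probe reached 1.5-fold in either direction. Both doses were set against the same untreated array, so that their shared signs are not separate observations.

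These counts were near or below the shares over all measured probes, of every signal level. At CA 50 μM, 1 of 12 probes was at least 1.5-fold from untreated and 0 were at least 2-fold from it, where 7.21% and 1.07% of the 22471 measured probes were. At CA 100 μM the counts were 0 and 0 of 12, beside 4.31% and 0.894% of 22267 probes. Between the doses they were also 0 and 0, beside 3.62% and 0.855% of 22453 probes.

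The median log2 ratio over the 12 probes was -0.17 at CA 50 μM (range -0.30 to 0.67) and -0.08 at CA 100 μM (range -0.36 to 0.39). Over all measured probes the medians were -0.01 and -0.02. Ratios depended on signal, however, and when probes were divided by signal into 5 classes of equal size, the brightest of which holds 10 of the 12, the medians of that class were -0.10 and -0.06. Of the 12 probes, 4 lay above the class median at each dose. The 12 include APOA5 and APOM probe A_24_P89426, which are outside the class. Within the class the median was lower still at the highest signals. It was -0.16 at CA 50 μM over the 1124 brightest probes and -0.11 at CA 100 μM over the 1114 brightest. The median over the 12 probes for CA 50 μM was between -0.07 and -0.02 with quantile or loess scaling, normexp background correction or the log2 table of the authors.

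**Figure D2:**
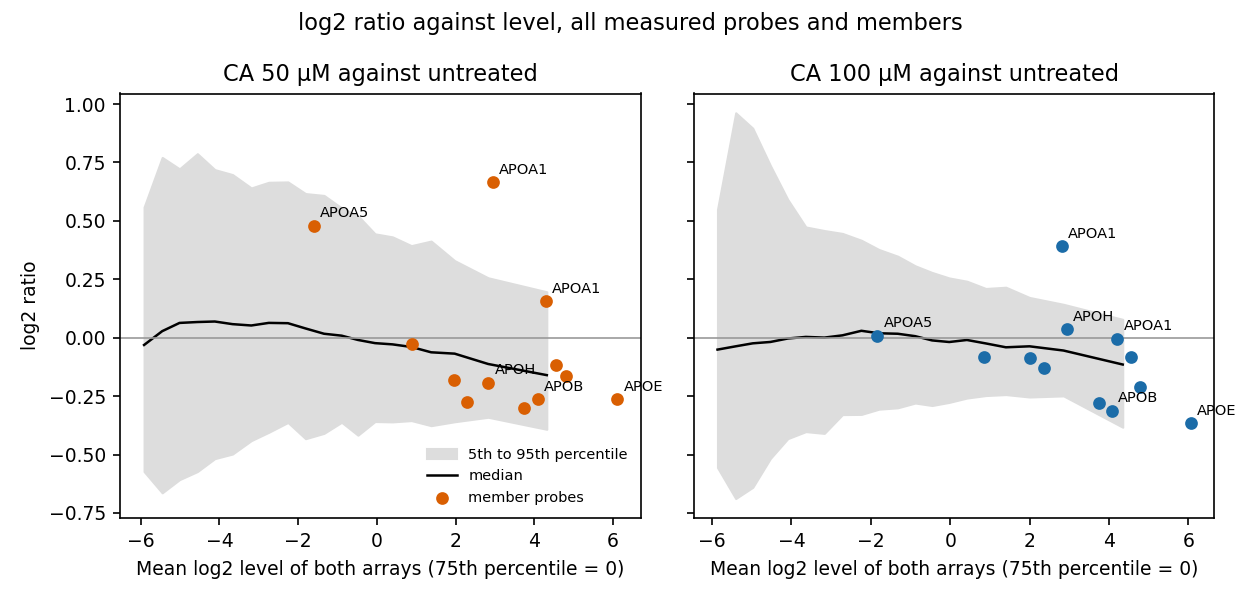
log2 ratio against untreated plotted on the mean log2 level of both arrays (75th percentile = 0), for CA 50 μM (left) and CA 100 μM (right), with the 12 probes as points. The line is the median and the band the 5th to 95th percentile over all measured probes of like level; the line falls below 0 at the bright end, where most of the points lie, and APOA1 probe A_23_P203191 lies above the band in both panels.

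The assembly of APOB particles was followed through APOB and MTTP. APOB, the structural protein of very-low-density and low-density lipoproteins, gave a signal of 19841 on the untreated array, 18872 at CA 50 μM and 18848 at 100 μM (geometric mean over 9, 10 and 10 spots). The log2 ratio was -0.26 for the lower dose and -0.31 for the higher one, and the ratio of CA 100 μM to CA 50 μM was -0.05. Over the alternatives the lower dose was between -0.31 and -0.12 and the higher dose between -0.33 and -0.21. In the brightest class, 83.0% of probes had a higher ratio than APOB at CA 50 μM, and 4.96% had a lower one at CA 100 μM.

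Of the 10 spots of APOB, 1 was dim on all 3 arrays. It read 13972 on the untreated array, where it carried an outlier flag and was left out, and 13212 and 13234 on the treated arrays, where it did not and was kept. The log2 ratios against untreated and the class ranks given above for APOB are from these unmatched sets of spots. Over the 9 positions used on both arrays, the mean log2 ratio was -0.20 ± 0.15 (SD over spots) at CA 50 μM, with -0.26 ± 0.16 for 100 μM. Of these positions, 1 of 9 was higher than untreated at CA 50 μM and 0 of 9 at CA 100 μM after scaling. The median spot SD over replicated probes of the brightest class was 0.051 at each dose, so the APOB spots spread more widely than those of most such probes. Spot SDs cover printing and scanning error only, not the difference between cultures.

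MTTP gave 25712 on the untreated array, 27071 at CA 50 μM and 28632 at 100 μM. After scaling its log2 ratio was -0.12 and -0.08. At each dose the sign turned with quantile or loess scaling, normexp and the log2 table of the authors, where the ratio reached 0.03. These were 4 of 11 alternatives, and some of the others could not change the value. The probe lay near the middle of its class, in which 47.2% and 42.4% of probes had a lower ratio.

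The proteins of HDL were represented by APOA1, APOA2 and APOM. APOA1, the main protein of HDL and the activator of lecithin-cholesterol acyltransferase, has 2 probes. Probe A_23_P203191 read 6462 on the untreated array, 11696 at CA 50 μM and 10000.3 at 100 μM, each the geometric mean of 8 spots. The single spots ranged from 6099 to 6855, from 10847 to 12464 and from 9609 to 10434, so that the spot ranges of the 3 arrays did not overlap.

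After scaling, this probe had a log2 ratio of 0.67 ± 0.064 (SD over 8 spots) at CA 50 μM and 0.39 ± 0.052 at 100 μM, with all 8 spot positions higher at each dose. The median spot SD over replicated probes was 0.065 and 0.064, and it was 0.051 at each dose over those in the brightest class. Of all measured probes 3.32% had a higher ratio at CA 50 μM and 5.77% at 100 μM, and of the brightest class 0.200% and 0.494%. CA 100 μM was below CA 50 μM by 0.27 on the log2 scale (ratio -0.27 ± 0.049 over 8 spots).

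The other APOA1 probe, A_33_P3298539, is printed once and read 19639, 24943 and 23103 in the same order of arrays. The log2 ratios of this probe were 0.16 and -0.0038 at the lower and the higher dose. The 2 probes of this gene thus differed by 0.51 and 0.40, and their disagreement was wider than the median gap of 0.25 and 0.20 among genes with several probes. It was not unusual, since 20.5% of 3266 such genes at CA 50 μM and 21.6% of 3237 at CA 100 μM had a wider gap. Probe A_33_P3298539 had the opposite sign under 1 of 11 alternatives at CA 50 μM (-0.0049) and 4 of 11 at CA 100 μM (up to 0.11). The size of the APOA1 difference at CA 50 μM, and whether there was any at CA 100 μM, thus depended on the probe.

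**Figure D3:**
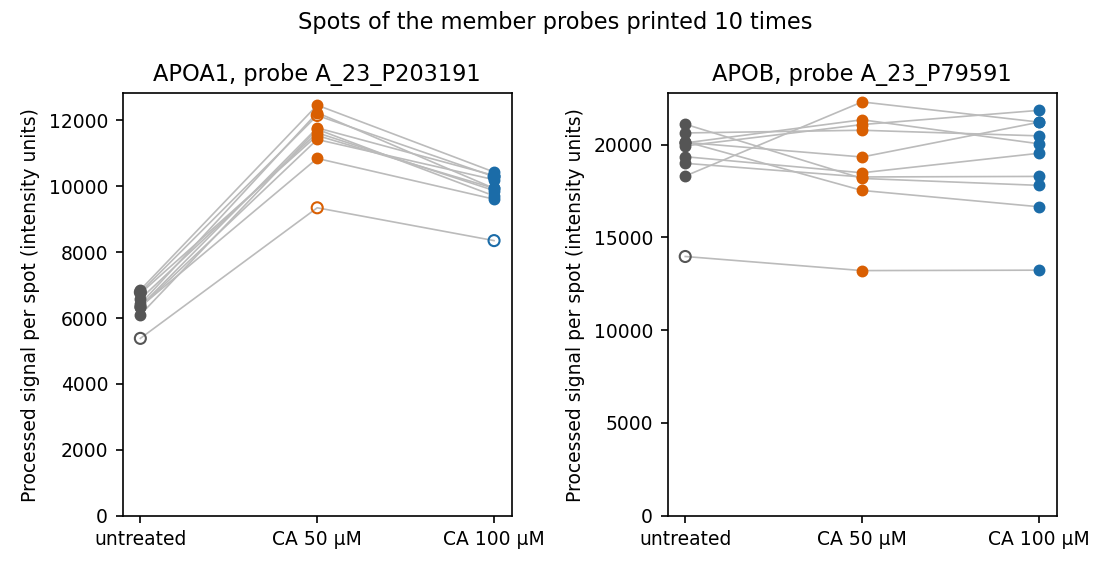
Processed signal (intensity units, not scaled between arrays) of each spot of the APOA1 and APOB probes printed 10 times, by array; lines join a position on the array and open points carry an outlier flag. The APOA1 spots separate by array, from at most 6855 untreated to at least 9609 with CA among the spots used, whereas the APOB spots overlap and 1 position is dim throughout.

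APOA2, a further structural protein of HDL, read 31575 on the untreated array, 32183 at CA 50 μM and 32153 at 100 μM. Its unscaled signals were thus nearly equal, and the scaled log2 ratios were -0.16 (-0.21 to -0.01 over the alternatives) and -0.21 (-0.23 to -0.09). The CA 100 μM spot lay in an area of that array that was bright for dim probes.

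APOM, a lipocalin of HDL that carries sphingosine 1-phosphate, has 2 probes. Probe A_23_P42265 read 4393, 4415 and 4882 in the order untreated, CA 50 μM and CA 100 μM, and its log2 ratios were -0.18 (-0.23 to -0.12 over the alternatives) and -0.09 (-0.11 to -0.03). Probe A_24_P89426 read 1974, 2212 and 2197, with log2 ratios of -0.03, whose sign turned under 2 of 10 alternatives, and -0.08. The probes were 0.16 apart at CA 50 μM and 0.0022 apart at CA 100 μM, closer than those of most genes with several probes.

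Among the exchangeable apolipoproteins, APOE is the ligand through which remnant particles bind their receptors on hepatocytes. It read 80011 on the untreated array, 76030 at CA 50 μM and 73304 at 100 μM, and was lower on both treated arrays before and after scaling. The log2 ratios were -0.26 and -0.36. At CA 50 μM the value was -0.01 under the alternative that moved it most. At CA 100 μM 5.95% of all probes and 2.72% of the brightest class had a lower ratio, and over the alternatives the value ran from -0.38 to -0.07. Ratios fell with signal inside that class. Over the 1114 brightest probes the 5th percentile at CA 100 μM was -0.38, and APOE was above it.

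APOC1, which slows the uptake of remnants, read 15785, 14615 and 15337 in the same order. Its log2 ratios were -0.30 and -0.28, and those over the alternatives were between -0.37 and -0.18 at CA 50 μM and between -0.30 and -0.20 at CA 100 μM. APOC1 was thus on the lower side of untreated at both doses.

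APOC3, an inhibitor of lipoprotein lipase, read 5735 on the untreated array, 5410 at CA 50 μM and 6176 at 100 μM. The log2 ratios were -0.27 and -0.13, and CA 100 μM was above CA 50 μM by 0.14. These were -0.05 and -0.04 under the alternatives that moved them most.

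APOA5, which raises the action of lipoprotein lipase on triglyceride, gave a signal below the 75th percentile of each array, from 1 spot. It read 294.7 on the untreated array, 468.7 at CA 50 μM and 349.8 at 100 μM, so CA 50 μM was high, and the other two were close together after scaling. The log2 ratio was 0.48 at CA 50 μM (0.33 to 0.48 over the alternatives) and 0.0091 at CA 100 μM, where the sign turned under 5 of 11 alternatives. In the class of like signal 9.64% of probes had a higher ratio at CA 50 μM. Between the doses it was -0.47, lower than all but 3.52% of that class.

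APOH, also called beta-2-glycoprotein I, is a plasma protein that binds anionic phospholipids and the target of antiphospholipid antibodies. It read 8043 untreated, 8028 at CA 50 μM and 9734 at 100 μM. Its log2 ratios were -0.19 (-0.24 to -0.10 over the alternatives) and 0.04, and the doses differed by 0.23, with a higher value in 4.48% of the brightest class.

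**Figure D4:**
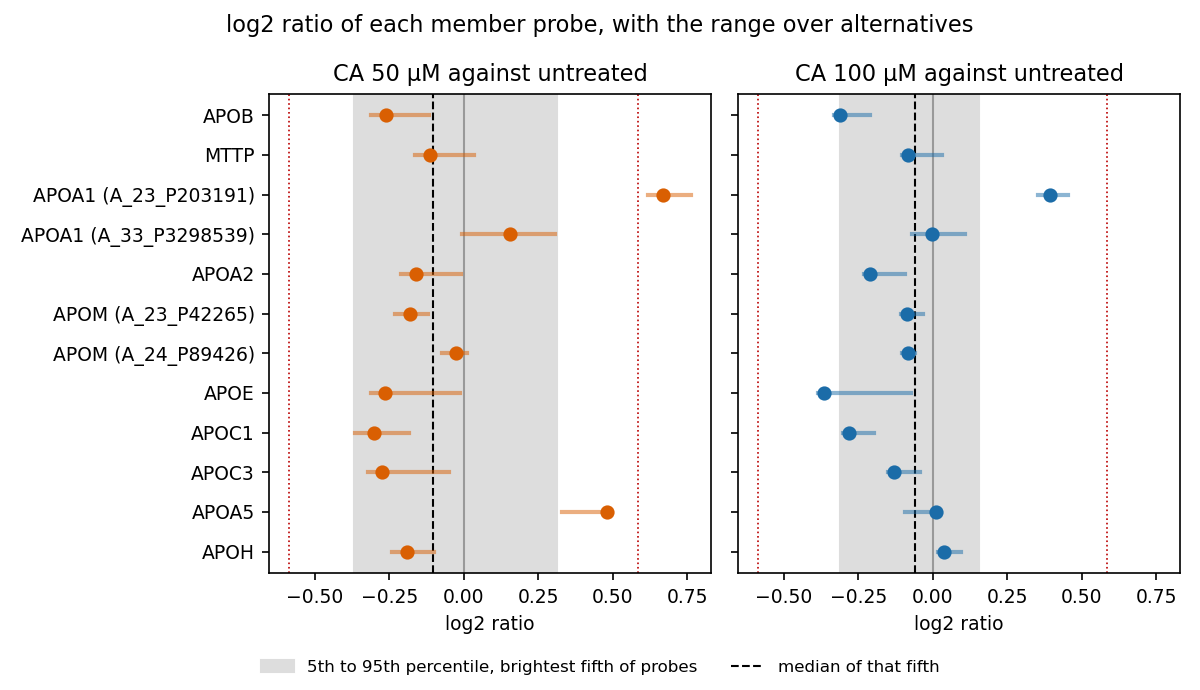
log2 ratio of each of the 12 probes against untreated (points) at CA 50 μM and CA 100 μM, with bars for the range over the alternative ways of processing and dotted lines at 1.5-fold. The shaded band is the 5th to 95th percentile of the brightest class of probes (-0.37 to 0.31 at CA 50 μM, -0.31 to 0.16 at CA 100 μM) and the dashed line its median. APOA1 probe A_23_P203191 lies right of the band at both doses, and APOA5 (a dimmer probe, outside that class) at CA 50 μM. At CA 100 μM APOE lies left of the band and APOB at its left edge. The 5th percentile of the 1114 brightest probes at CA 100 μM was lower, at -0.38, and APOE lies above it. APOB is plotted with a dim spot that was left out on the untreated array only, and was -0.26 over the 9 positions used on both arrays.

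Other genes of the system were described by 6 lists, each gene by its brightest probe. Over all genes with a ratio, 6.32% of 14700 were at least 1.5-fold from untreated at CA 50 μM (median log2 ratio -0.04), 3.18% of 14640 at CA 100 μM (median -0.03), and 2.93% of 14666 differed that much between the doses. At CA 100 μM none of the 90 measured genes of the 6 lists was 1.5-fold from untreated, and up to 3 were under the alternatives. At CA 50 μM 7 of 90 (7.78%) were, a share near that over all genes, and 4 of those 7 were under 1.5-fold in at least 1 alternative. Between the doses 5 of 91 (5.49%) were, above the share over all genes. APOL1 (log2 ratio 0.78), LRP6 (0.68) and ANGPTL8 (0.64), an inhibitor of lipoprotein lipase, were higher at CA 100 μM than at CA 50 μM, and LRP5 (-0.71) and USF1 (-0.80) were lower. With normexp APOL1, ANGPTL8 and USF1 were under 1.5-fold, which left 2 genes. ANGPTL8 (25.5, 25.6 and 41.3 in the order untreated, CA 50 μM and CA 100 μM) and USF1 (12.5, 27.9 and 16.5) were close to background. USF1 was not well above background on the untreated array.

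Of the other apolipoproteins, 11 of 18 were measured at CA 50 μM and their median was -0.03. APOL1, the trypanosome-lytic factor of HDL, was lower (152 untreated, 116 at CA 50 μM, log2 ratio -0.58) but read 206 at CA 100 μM (0.20). Its ratio at CA 50 μM was just past 1.5-fold and was -0.44 with normexp background correction. APOC2, the activator of lipoprotein lipase, had an outlier flag at CA 50 μM, and at CA 100 μM its ratio was -0.06. APOA4, an intestinal apolipoprotein, was dim on all arrays (52.5, 46.2 and 42.4), with ratios of -0.37 and -0.54.

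All 24 genes of particle assembly and secretion were measured, with medians of -0.05 and -0.03 at CA 50 μM and CA 100 μM. DGAT2, which makes triglyceride, was higher at CA 50 μM (190 against 335, log2 ratio 0.63) and read 292 at CA 100 μM (0.38). It was under 1.5-fold at CA 50 μM in 5 of 10 alternatives, down to 0.50. P4HB, the protein disulphide isomerase that pairs with the MTTP product, read 58574, 55154 and 61148, by its brightest probe, with ratios of -0.28 and -0.18, whereas its other probe read 10788, 17533 and 14572, with ratios of 0.51 and 0.20. The probes of P4HB were thus 0.79 and 0.37 apart, and the first of these gaps was exceeded by 6.64% of genes with several probes. Of the genes that edit APOB mRNA, 3 of 4 were measured with medians of 0.14 and 0.08. A1CF, the RNA-binding cofactor of editing, had ratios of 0.30 and 0.08, and the editing enzyme APOBEC1 was not well above background on any array.

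In plasma remodelling and HDL metabolism, 13 of 16 genes were measured, with a median of -0.04 at both doses. FURIN, a proprotein convertase, was the gene with the largest ratio of the 6 lists at CA 50 μM (209 against 468, log2 ratio 0.97) and read 339 at CA 100 μM (0.46). BMP1, a protease that matures pro-APOA1, was close to background (22.9, 39.7 and 38.8), and its ratio of 0.60 at CA 50 μM was under 1.5-fold in 5 of 10 alternatives and became -0.02 under another background correction. LCAT had ratios of 0.19 and -0.06.

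All 16 receptors and clearance genes were measured, with medians of -0.07 and -0.09. The former turned to 0.02 with quantile or loess scaling and in the log2 table of the authors. LRP5 was higher (1418 against 2656, log2 ratio 0.72) and LRP6 lower (5897 against 3794, -0.83) at CA 50 μM, whereas at CA 100 μM these Wnt coreceptors had ratios of 0.0016 and -0.14. SCARB1, the HDL receptor, had ratios of -0.22 and -0.15.

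Of the transcription factors of apolipoprotein genes, 23 of 26 were measured, with medians of 0.06 and 0.01. PPARGC1A, a coactivator of fasting metabolism, was lower at CA 50 μM (301 against 222, log2 ratio -0.63) and at CA 100 μM (251, -0.50). With normexp background correction the former was -0.54, under 1.5-fold. The single probe of HNF4A was well above background on the CA 50 μM array only (21.8 units), so no ratio was formed.

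**Figure D5:**
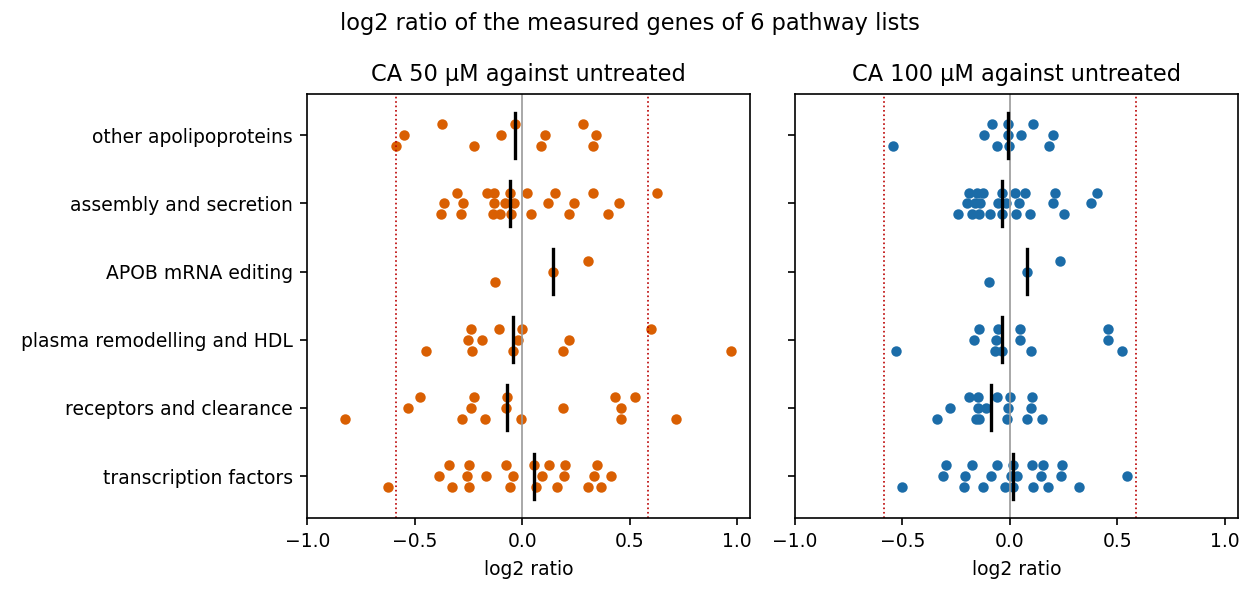
log2 ratio against untreated of the measured genes of 6 lists (1 point per gene, by its brightest probe) at CA 50 μM and CA 100 μM, with black bars at list medians and dotted lines at 1.5-fold. Medians lie within -0.07 to 0.14 at CA 50 μM and -0.09 to 0.08 at CA 100 μM; 7 points reach the dotted lines on the left panel and none on the right.

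The labelled cell type was checked by markers. Hepatocyte markers were well above background for 8, 9 and 9 of 10 genes without CA and with 50 μM and 100 μM of it, HNF4A being added at 50 μM and TF, which carried an outlier flag on the other arrays, at 100 μM. Over the 8 genes above background on every array, all of them secreted plasma proteins, the summed signals were 380602, 383478 and 369754 before scaling. Of these 8 genes, 2 were higher and 6 lower at CA 50 μM (log2 ratios from -0.47 to 0.08), and 1 was higher and 7 lower at CA 100 μM (from -0.47 to 0.0047). Their median was -0.13 at both doses, beside -0.17 and -0.08 for the 12 probes.

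Markers of other cell types were also detected. Their sums on the 3 arrays were between 793 and 1086 for 3 endothelial genes, between 1034 and 1300 for 3 leukocyte genes, and between 123 and 214 for 4 fibroblast or stellate genes. Of the latter, COL1A1 was above background only at CA 100 μM, where its spot lay in an area bright for dim probes. Without COL1A1 the sum at CA 100 μM was 162. Of 4 intestinal markers 3 were above background (sums of 31514 to 33748), and FABP2 was not. All 4 cholangiocyte markers were above background (16159 to 17382), with log2 ratios between those of KRT7 (-0.91 and -0.61 at the lower and higher dose) and SOX9 (0.36 and 0.19). The part of any of these in the ratios of the 10 genes was not tested.

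Across each array, 70.4% to 71.1% of the gene spots used were well above background, and 0 to 1 gene spots were saturated. Areas bright for dim probes held 0.151%, 0.0881% and 5.69% of spots in the order untreated, CA 50 μM and CA 100 μM. Of the 12 probes, the APOA2 probe had its CA 100 μM spot in such an area.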

How the data were processed

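Total RNA of Huh7 cells was labelled with Cy3 by the authors and hybridised to 1 Agilent array per group. The authors made the deposited intensity values with Feature Extraction 11.0.1.1, which subtracts background and removes spatial trends. They also deposited log2 values per probe with an unstated scaling; the columns share their median (6.22) and 75th percentile (9.68) and follow the log2 processed signal (r of 0.99996 or more), and were used as an alternative only. A negative or positive ratio means treated lower or higher.

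From the 43118 gene spots, outlier-flagged ones (429, 569 and 596 for untreated, CA 50 μM and CA 100 μM) were left out, log2 processed signals were averaged per probe (999 probes have 10 spots) and the 75th percentile of the array was subtracted. Ratios needed both arrays well above background in at least 50% of spots. RefSeq accessions named 25771 of 34127 probes (75.5%). The array was annotated on another build than the promoter table, so no positions of probes or genes are given, and the promoter windows carry the coordinates of their own build. With 1 array per group, no test was run, and precision is limited by the number of arrays.

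The members and lists were chosen with earlier results of these data known. Named were all members, list genes at least 1.5-fold from untreated and genes nearest in role to a member, fixed by name (a further one is not reported here; KRT7, SOX9 and TF among the markers, and ANGPTL8 and USF1, were named after their values were seen). Alternatives were 10 planned and 1 added after the data were seen, which left out spots with a flagged background. They comprised quantile, cyclic loess or median scaling, normexp (offset 50, on median spot signals, since the files used here hold no mean), the deposited log2 table, and other handling of saturated, outlier-flagged or disturbed spots, dim probes and probes per gene. Leaving out saturated spots, the filter on 1 array for dim probes and 1 probe per gene could not change the ratio of a member probe. Bright areas were windows of 17 rows and 7 columns in which at least 5 spots, and 25% of those dim on the other arrays, were 4-fold brighter on 1 array. Arrays of MIHA cells and of miRNAs were not analysed here. Scripts were tested on simulated data. Normalization ran in limma 3.58.1 under R 4.3.3, and the rest in Python 3.11.15 with pandas 2.3.3, numpy 2.4.6, matplotlib 3.10.9 and scipy 1.17.1.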

Additional observations from a re-analysis of the deposited data

How the results depend on the processing

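The number of the 12 probes at least 1.5-fold from untreated at CA 50 μM went from 1 to 0 when each gene was given by its brightest probe, since that drops APOA1 probe A_23_P203191. The median over the 12 probes at CA 50 μM (-0.17) was -0.0439 with quantile normalization, -0.0413 with cyclic loess, -0.0733 with normexp and -0.0191 in the deposited log2 table. List medians at CA 50 μM became 0.0573 for APOB mRNA editing with normexp, 0.13 for transcription factors with cyclic loess, and, for receptors and clearance, 0.0242 with quantile normalization, 0.0204 with cyclic loess and 0.0206 in the deposited table. At CA 100 μM, plasma remodelling and HDL became 0.0332 with cyclic loess, and receptors and clearance became -0.0109 with quantile normalization, -0.0204 with cyclic loess and -0.0027 in the deposited table. The cause was not tested. Numbers of list genes at least 1.5-fold from untreated at CA 50 μM changed as follows. Other apolipoproteins went from 1 to 2 with median centring and to 3 with the filter on 1 array. Assembly and secretion went from 1 to 0 with quantile, loess or median scaling and in the deposited table. Plasma remodelling and HDL went from 2 to 1 under these and with normexp. Transcription factors went from 1 to 0 with normexp and to 4 with the filter on 1 array, and the 6 lists together from 7 to 13 with that filter. At CA 100 μM, where all were 0, other apolipoproteins became 1 with quantile normalization and in the deposited table and 2 with the filter on 1 array, plasma remodelling and HDL became 1 under the same 3 alternatives, and the 6 lists together became 2, 2 and 3. Between the doses the 6 lists went from 5 to 2 with normexp. Over all genes, the 929, 466 and 430 past 1.5-fold at CA 50 μM, at CA 100 μM and between the doses were 345, 88 and 98 with normexp, and with the filter on 1 array they were 1024 at CA 100 μM and 987 between the doses. Of 388 values of single probes under the alternatives, 58 moved by more than the median spot SD and 23, of 8 of 36 ratios, had the other sign, all of them of ratios under 1.5-fold. The 388 include values that could not change. Leaving out saturated spots, the filter on 1 array and 1 probe per gene left each of these ratios as it was, so the shares that moved are understated. In all, 38 of 369 summary values moved. No paired analysis was possible because each group has 1 array, and for the same reason no replicate could be left out. With 1 array per group, the effect of CA and the difference between any pair of cultures or hybridisations cannot be told apart.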
